A study of Mus musculus with 6 samples.

Results

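The BCL2 family genes described here are Bcl2, Bcl2l1, Mcl1, Pmaip1, Bbc3, Bid, Bak1, Bcl2l11, Bad and Bcl2l15, 10 of the 12393 genes named on the array. They were chosen by gene symbol in the platform's annotation, and all of their 25 probe sets, of 22626 tested, were kept whatever their level. They were measured in KPR4, KPR5 and KPR8, 3 cell lines derived from mouse lung adenocarcinomas of a C57/B6-129SvJae background, with 1 array per line and treatment. One array of each line was of a culture given 250 nM 4-OH tamoxifen, which per the labels reactivates p53 expression in these cells, 24 hours before RNA collection. The other array of each line was of a culture given the ethanol vehicle alone. The alleles behind the lines are not given in the sources used here. No line lacking the p53 allele was treated, so effects of the drug and of p53 cannot be told apart.

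Proteins of the BCL2 family decide whether the outer mitochondrial membrane is opened during apoptosis. Survival members such as BCL2, BCL-XL and MCL1 hold in check the effector BAK and its relatives, and the BH3-only proteins NOXA, PUMA, BIM, BID and BAD release that block or act on the effectors. The transcription factor p53 is known to induce Bbc3, which encodes PUMA, and Pmaip1, which encodes NOXA. NOXA binds mainly to MCL1, whereas PUMA and BIM bind all of the main survival members.

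Promoters were taken from RefSeq's GRCm38.p6 table for 9 of the 10 genes, all but Pmaip1. Each ran from 250 bases before to 50 bases after a gene start. They were searched for the core of the p53 response element, the tetramers CAAG or CATG or CTAG or CTTG, a set that reads the same on both strands. A tetramer was present in 13 of the 15 promoters of these genes and in 98% of all 32851 promoters. A pair of tetramers 6 bases apart, the spacing of a full p53 element, was present in 1 of the 15 and in 7.22% of all. The stricter p53 half-site consensus was found in 0 of the 15 and in 8.36% of all promoters. No promoter of Pmaip1 is among the 15, because it was left out by choice before the counting, so these counts do not cover that gene. The shares of all promoters were taken with no such omission. The promoters shown are those of 3 genes: Mcl1, because most of its probe sets rose, Bbc3, because it holds the pair, and Bcl2l15, because its level differed most between the lines. Capitals mark every core tetramer in Mcl1 (chr3:95658471-95658770, + strand) and Bcl2l15 (chr3:103832446-103832745, + strand). In Bbc3 (chr7:16309333-16309632, + strand) they mark the pair alone, which starts 94 bases before the gene start.
Mcl1: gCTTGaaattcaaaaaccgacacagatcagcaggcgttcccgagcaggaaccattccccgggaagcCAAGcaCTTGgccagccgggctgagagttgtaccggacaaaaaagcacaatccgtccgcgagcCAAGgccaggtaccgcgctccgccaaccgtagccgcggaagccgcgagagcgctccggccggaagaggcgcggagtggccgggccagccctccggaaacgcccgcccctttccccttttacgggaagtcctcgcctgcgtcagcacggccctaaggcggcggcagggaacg
Bbc3: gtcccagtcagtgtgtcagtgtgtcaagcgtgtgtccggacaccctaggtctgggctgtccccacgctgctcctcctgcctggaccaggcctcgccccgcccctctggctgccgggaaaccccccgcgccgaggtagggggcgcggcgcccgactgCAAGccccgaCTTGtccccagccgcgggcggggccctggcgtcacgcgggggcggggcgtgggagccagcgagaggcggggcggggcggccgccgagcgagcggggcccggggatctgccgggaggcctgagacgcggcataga
Bcl2l15: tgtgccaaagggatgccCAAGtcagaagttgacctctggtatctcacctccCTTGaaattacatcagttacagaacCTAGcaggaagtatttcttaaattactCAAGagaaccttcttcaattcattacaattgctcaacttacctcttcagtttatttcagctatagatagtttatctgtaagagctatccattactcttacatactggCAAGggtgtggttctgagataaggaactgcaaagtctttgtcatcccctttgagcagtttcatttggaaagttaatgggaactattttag
These matches describe letters and not binding, and no binding was measured.

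The deposited levels are log2 expression values. The highest of 27 Bacillus subtilis control probe sets, which have no target in mouse RNA, read 2.84 and served as the level of background. Of the 25 probe sets, 21 were above it on each of the 6 arrays, and 2 (Bak1 1425716_s_at and Bcl2l1 1426050_at) on none. Of 46 probe sets of tissue-restricted genes, such as rhodopsin, 13 were also above it on each array. Passing this level therefore does not by itself show expression. As a check of the labels, the brighter probe set of the p53 target Cdkn1a read 11.31, 11.23 and 10.75 in KPR4, KPR5 and KPR8 with tamoxifen, against 5.69, 7.73 and 5.97 with ethanol. Epithelial markers were present, with Cdh1, encoding E-cadherin, between 11.67 and 12.40. Cldn4 was the dimmest, at 4.13 to 7.28. It was the only 1 of 10 epithelial probe sets called with tamoxifen (0.89 ± 0.18, SE, limma adjusted p = 0.0102). Between the lines 8 of the 10 differed (limma F-test), against 24.2% of all probe sets. The 13 probe sets of 9 lung epithelial genes were mixed. Nkx2-1 did not exceed 2.83 and the surfactant gene Sftpc 3.13, whereas Aqp5 read 7.23 to 10.11, the brightest Abca3 probe set 6.89 to 8.32, and Foxj1 was higher with tamoxifen (0.93 ± 0.12, SE, limma adjusted p = 0.000568). Among markers of other cells, the summed level of 9 leukocyte probe sets was 25.5 to 26.5 with tamoxifen and 24.9 to 25.2 with ethanol, with Cd68 the only one called (1.02 ± 0.13, SE, adjusted p = 0.000705) and the defining marker Ptprc at 2.05 or below. The sums were 44.6 to 49.4 and 46.4 to 49.2 for 13 fibroblast probe sets, and 17.1 to 17.9 and 17.6 to 18.3 for 6 endothelial ones. Their part in the results below was not tested.

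With 4-OH tamoxifen the BH3-only gene Pmaip1 and the survival gene Mcl1 rose, and no probe set of the 10 genes was called lower. In RNA from whole cultures, more RNA per cell and more cells with a gene switched on cannot be told apart. Changes were tested with limma in a model with terms for line and treatment, fitted to all 22626 probe sets, and adjusted p-values are Benjamini-Hochberg values over all of them with a threshold of 0.05. By this test 8 of the 25 probe sets were higher, or 32%, against 4.23% of all probe sets, and 0 were lower, against 3.69% of all. The genes were chosen with earlier results of these data known, so these shares describe the chosen genes and are no test. At an unadjusted p below 0.05 in limma, 11 were higher, against 10.7% of all probe sets, and 0 lower, against 11.1% of all. Among the 13169 probe sets at log2 4 or above on at least 3 arrays, the brighter part of the array, 6.50% were called higher, and 17 of the 25 belonged to it. The 8 stand for 4 genes, 5 of them for Mcl1, and probe sets of 1 gene are not independent of each other. The median change over the 25 probe sets was 0.24, against -0.02 over all. The groups did not overlap, with the tamoxifen arrays above the ethanol arrays, for 3 of the 25 probe sets, against 5.44% of all, and for 0 in the other direction, against 7.22%.

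**Figure D1:**
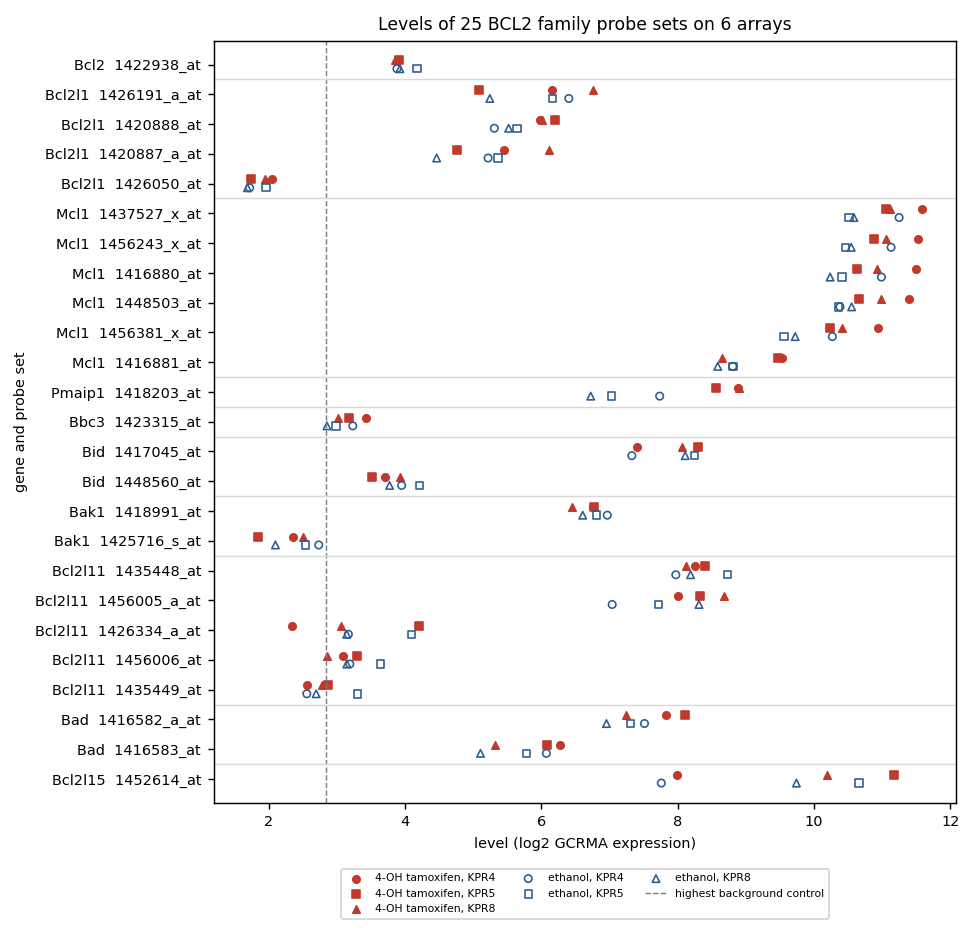
Levels of the 25 probe sets (log2 expression, horizontal axis) on the 6 arrays, with filled symbols for 4-OH tamoxifen, open symbols for ethanol and a symbol shape per line. The dashed line is the highest background control, 2.84. Pmaip1 has its 3 tamoxifen arrays between 8.56 and 8.90, all to the right of the ethanol arrays.

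Of the BH3-only genes, Pmaip1 had the largest change among all 25 probe sets. Its only probe set read 8.88 in KPR4, 8.56 in KPR5 and 8.90 in KPR8 with tamoxifen, against 7.74, 7.03 and 6.72 in the same lines with ethanol. All tamoxifen arrays were above all ethanol arrays, and the treated levels of the lines lay closer together than the ethanol levels (SD 0.19 with tamoxifen and 0.52 with ethanol, n = 3 each). KPR8 had the largest change, 2.17, with 1.53 in KPR5 and 1.14 in KPR4. Over the 3 lines it was 1.62 ± 0.19 (SE, limma adjusted p = 0.000399), a 3.06-fold rise with a 95% interval of 2.28 to 4.11. With 1 line left out in turn, the adjusted p lay between 5.42e-05 and 0.00332.

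Bbc3, the other classical p53 target among these genes, had a low and nearly constant signal. Its probe set read 3.43, 3.18 and 3.02 in KPR4, KPR5 and KPR8 with tamoxifen and 3.24, 2.99 and 2.86 with ethanol. The values lay just above the background controls, and tissue-restricted genes such as rhodopsin, protamines and crystallins, measured with 46 probe sets, had a median of 2.74 and a 90th percentile of 3.79. The change was above 0 in each line, between 0.17 and 0.20, and was 0.19 ± 0.11 over the 3 lines (limma adjusted p = 0.370, 95% interval 0.964-fold to 1.34-fold). The promoter with the p53 core pair shown above belongs to this gene.

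Bcl2l11, which encodes BIM, was measured by 5 probe sets that did not move together. The probe set 1456005_a_at read 8.01, 8.33 and 8.68 in KPR4, KPR5 and KPR8 with tamoxifen and 7.04, 7.72 and 8.31 with ethanol. It was higher in each line, by 0.97, 0.61 and 0.37, although the groups overlap because the lines differ. Its change was 0.65 ± 0.17 (limma adjusted p = 0.0335), but leaving out KPR4 (adjusted p = 0.293) or KPR5 (adjusted p = 0.0689) ended the call. The equally bright probe set 1435448_at read 8.25, 8.41 and 8.13 with tamoxifen and 7.97, 8.73 and 8.19 with ethanol, a change of -0.04 ± 0.16 (adjusted p = 0.932). The remaining 3 probe sets were dim, none above 4.20, with changes between -0.27 and -0.11 that were not called. Which transcripts each probe set reads was not examined here.

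Bid and Bad, encoding BH3-only proteins that are switched on after translation, by cleavage and by loss of phosphate, were not called. The brighter Bid probe set read 7.40, 8.31 and 8.06 in KPR4, KPR5 and KPR8 with tamoxifen and 7.33, 8.25 and 8.11 with ethanol, a change of 0.03 ± 0.15 (limma adjusted p = 0.951). The dimmer one lay between 3.52 and 4.21. The brighter Bad probe set read 7.83, 8.11 and 7.24 with tamoxifen and 7.51, 7.31 and 6.96 with ethanol. Its change was above 0 in each line and was 0.47 ± 0.17 over the lines (adjusted p = 0.127, 95% interval 1.07-fold to 1.78-fold). The second Bad probe set gave 0.24 ± 0.15 (adjusted p = 0.421).

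Among the survival genes, Mcl1, whose product is the main partner of NOXA, was higher on 5 of 6 probe sets. The probe set 1456381_x_at read 10.93, 10.24 and 10.42 in KPR4, KPR5 and KPR8 with tamoxifen, against 10.27, 9.56 and 9.73 with ethanol. The 3 lines moved by nearly the same amount, 0.66, 0.67 and 0.69, and the mean change was 0.68 ± 0.12 (limma adjusted p = 0.00433), a 1.60-fold rise with a 95% interval of 1.34 to 1.91. The probe set 1448503_at had its tamoxifen arrays (11.39, 10.66 and 10.98) above all ethanol arrays (10.38, 10.36 and 10.55), with 1.01 of change in KPR4 and 0.30 and 0.43 in KPR5 and KPR8. Its mean change was 0.58 ± 0.14 (adjusted p = 0.0251). The other 3 called probe sets gave 0.44 to 0.47 (adjusted p between 0.0179 and 0.0325). The sixth, 1416881_at, changed by 0.72, 0.66 and 0.06 in KPR4, KPR5 and KPR8, or 0.48 ± 0.16, and was not called (adjusted p = 0.0998). The direction was therefore up for all 6 probe sets in each of the 3 lines. The size was less than that of Pmaip1 in each line, and of the 5 called probe sets 1 remained called without KPR4, 3 without KPR5 and 3 without KPR8. Without KPR8 the sixth, 1416881_at, was called as well (adjusted p = 0.0257). The probe set 1456381_x_at was called with each line left out (adjusted p between 0.00911 and 0.043). Names ending in x_at mark probe sets whose probes may also bind other transcripts, and 3 of the 6 are of that kind.

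Bcl2l1, which encodes the survival protein BCL-XL, had 1 of 4 probe sets called. The probe set 1420888_at read 5.98, 6.20 and 6.02 in KPR4, KPR5 and KPR8 with tamoxifen, against 5.31, 5.64 and 5.52 with ethanol. The tamoxifen arrays were all above the ethanol arrays and close together, with a change of 0.57 ± 0.16 (limma adjusted p = 0.0422). That call ended with any line left out (adjusted p = 0.247 without KPR4, 0.105 without KPR5 and 0.0805 without KPR8), while the change stayed between 0.53 and 0.61. The probe sets 1426191_a_at and 1420887_a_at behaved otherwise. The first read 6.16, 5.09 and 6.75 with tamoxifen and 6.40, 6.16 and 5.25 with ethanol, and the second 5.45, 4.76 and 6.11 with tamoxifen and 5.22, 5.37 and 4.47 with ethanol. Both were lower with the drug in KPR5, by -1.07 and -0.61, and higher in KPR8, by 1.51 and 1.65. In KPR4 they changed by -0.24 and 0.23. Over the 3 lines neither was called (0.07 ± 0.35, adjusted p = 0.945, and 0.42 ± 0.31, adjusted p = 0.489), but without KPR5 the second was (0.94, adjusted p = 0.0244). With 1 array per line and treatment this difference between lines could not be tested.

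The 3'-minus-5' signal of the array's control probe sets, in which a higher value means less signal from the 5' end of the RNA, moved differently with treatment in the lines. For Gapdh it changed by 0.24, 0.29 and -0.40 in KPR4, KPR5 and KPR8, for Actb by 0.16, 0.39 and -0.07, and for Tfrc by 0.02, -0.14 and -0.64. For Pcx the changes were 0.73, 0.60 and -0.05. KPR8 had the lowest change of the 3 lines in each of these 4 controls. The part of RNA integrity in the Bcl2l1 values was not tested.

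**Figure D2:**
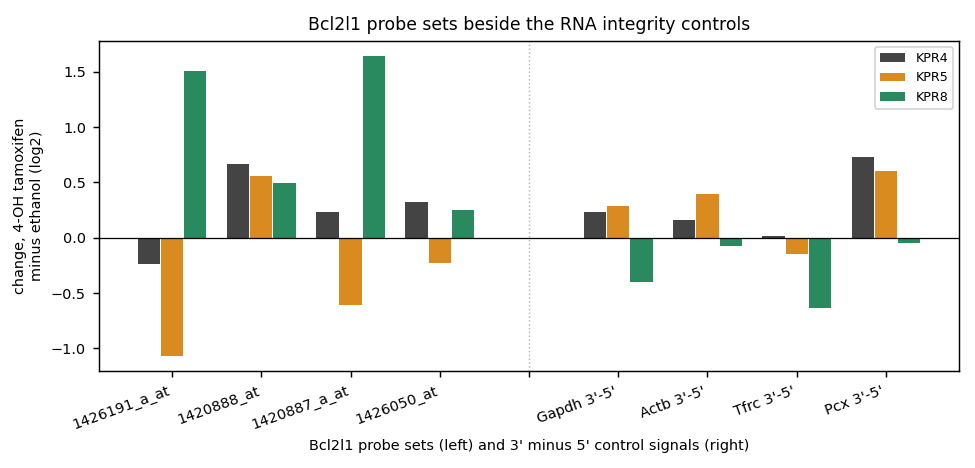
Changes with treatment (4-OH tamoxifen minus ethanol, log2, vertical axis) in each line for the 4 Bcl2l1 probe sets at the left and for the 3'-minus-5' signals of 4 control genes at the right. Each bar is a difference of 2 arrays with no error. The 1426191_a_at and 1420887_a_at bars point up in KPR8 and down in KPR5, and 1420888_at is up in each line.

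Bcl2 itself, the founding survival gene, was low on these arrays. Its probe set read 3.90, 3.91 and 3.85 in KPR4, KPR5 and KPR8 with tamoxifen and 3.88, 4.17 and 3.93 with ethanol, a change of -0.11 ± 0.13 (limma adjusted p = 0.715). The treated and untreated values overlapped, and the 95% interval ran from 0.762-fold to 1.13-fold.

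The effector gene Bak1, whose product forms the pore in the outer membrane, was measured at a middling level and was not called. Its brighter probe set read 6.76, 6.78 and 6.44 in KPR4, KPR5 and KPR8 with tamoxifen and 6.97, 6.81 and 6.61 with ethanol. Each line was slightly lower with the drug, by 0.03 to 0.21, and the mean change was -0.13 ± 0.16 (limma adjusted p = 0.707, 95% interval 0.716-fold to 1.16-fold). The dimmer probe set did not rise above background on any array.

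Bcl2l15 encodes Bfk, a BCL2-related protein known mainly from the digestive tract. It read 7.99, 11.17 and 10.19 in KPR4, KPR5 and KPR8 with tamoxifen and 7.76, 10.66 and 9.74 with ethanol. It was higher with the drug in each line, by 0.22, 0.51 and 0.45, and the mean change of 0.39 ± 0.13 was not called (limma adjusted p = 0.0998). The step between KPR4 and the other lines was several times that change.

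**Figure D3:**
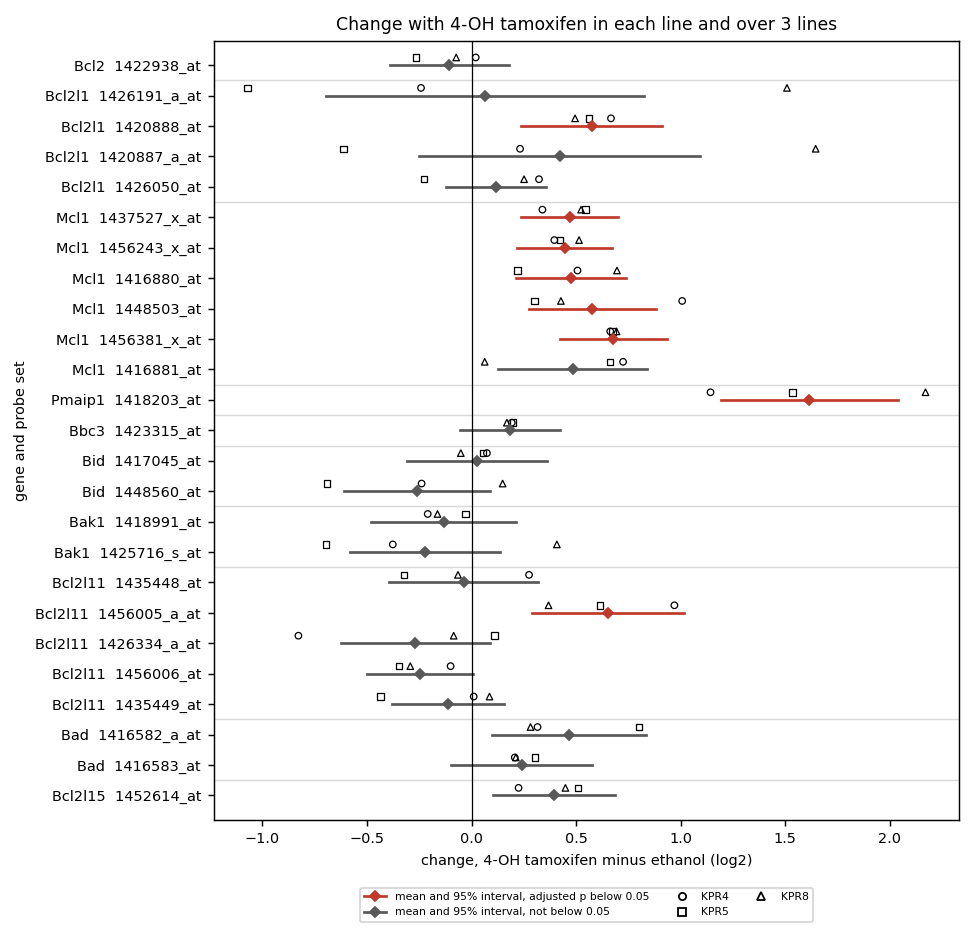
Change with treatment (4-OH tamoxifen minus ethanol, log2, horizontal axis) of each probe set. Small open symbols are the 3 lines, diamonds with bars are the mean and its 95% interval from limma, and red marks the 8 probe sets with an adjusted p below 0.05. Pmaip1, at 1.62, lies furthest to the right, and the 6 Mcl1 probe sets have each line above 0.

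**Figure D4:**
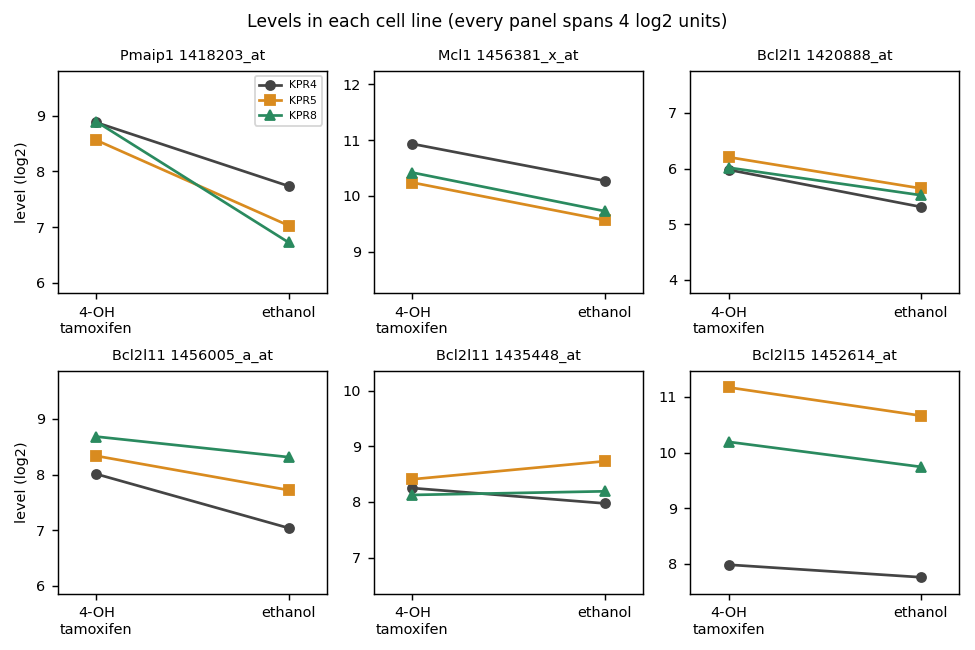
Levels (log2, vertical axis) of 6 probe sets in each line, with 4-OH tamoxifen at the left of each panel and ethanol at the right. Every panel spans the same range. In KPR8 Pmaip1 is at 8.90 with tamoxifen and 6.72 with ethanol, the Mcl1 lines run nearly parallel, and the 2 Bcl2l11 probe sets differ in their slope.

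The lines differed from each other in 9 of the 25 probe sets, or 36%, by a moderated F-test on the line terms (limma), against 24.2% of all probe sets. The genes were Mcl1 (4 probe sets), Bcl2l11 (2), Bid, Bad and Bcl2l15. The largest difference was that of Bcl2l15, with means over both treatments of 10.92 in KPR5, 9.97 in KPR8 and 7.87 in KPR4, so that KPR5 was 8.24-fold above KPR4 (adjusted p = 3.41e-07). It was also called with each line left out, the range being 0.95 between KPR5 and KPR8 alone (adjusted p = 0.00166). The brighter Bid probe set had means of 8.28 in KPR5, 8.09 in KPR8 and 7.37 in KPR4 (adjusted p = 0.00886). For Mcl1, KPR4 was highest rather than lowest: 1456381_x_at had means of 10.60 in KPR4, 10.07 in KPR8 and 9.90 in KPR5 (adjusted p = 0.00949).

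The Bid and Mcl1 differences rest on KPR4. Without that line the range of the Bid probe set was 0.19 (limma F-test adjusted p = 0.680), that of 1456381_x_at was 0.17 (adjusted p = 0.654), and 3 of the 25 probe sets were called. The second Bad probe set was lowest in KPR8, with means of 6.18 in KPR4, 5.93 in KPR5 and 5.21 in KPR8 (adjusted p = 0.00748), and was not called without KPR8 (adjusted p = 0.419). The 2 Bcl2l11 probe sets put the lines in different orders: 1456005_a_at was highest in KPR8 (8.50, against 8.03 in KPR5 and 7.52 in KPR4), and the dim 1426334_a_at in KPR5 (4.15, against 3.10 in KPR8 and 2.76 in KPR4). The first was not called without KPR4 (adjusted p = 0.225) or without KPR8 (adjusted p = 0.0892), and the second not without KPR5 (adjusted p = 0.146). Pmaip1, Bcl2l1, Bcl2, Bak1 and Bbc3 had no probe set called between lines.

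**Figure D5:**
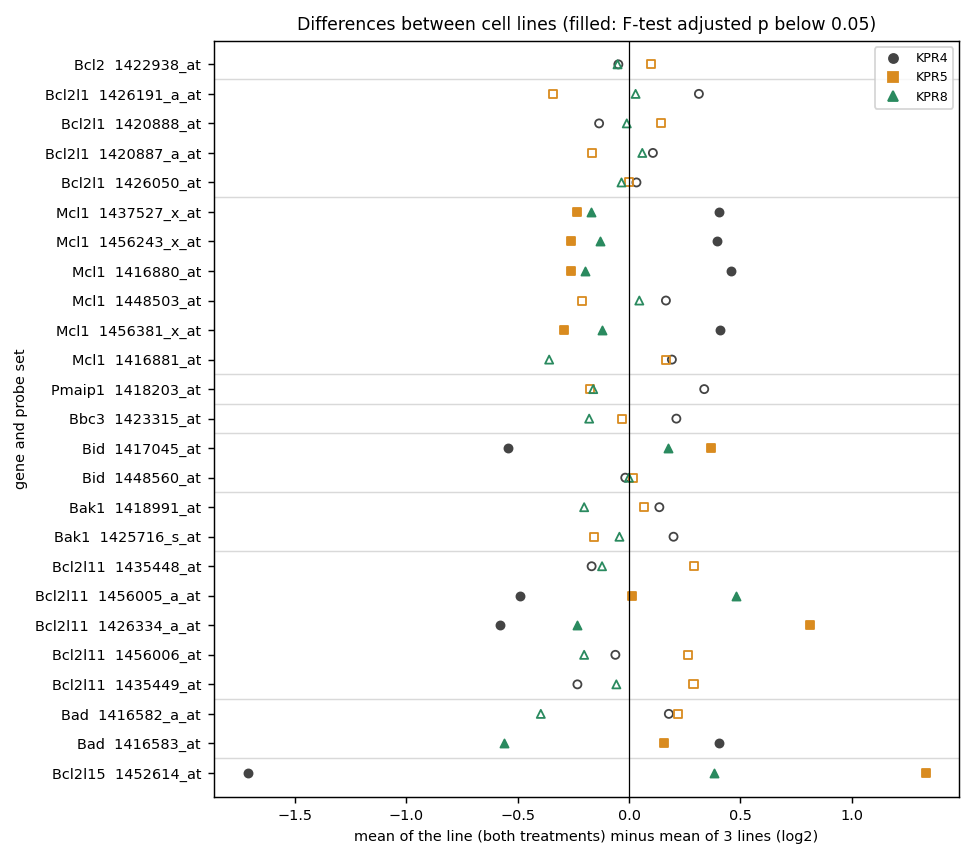
Mean of each line over both treatments minus the mean of the 3 lines (log2, horizontal axis) for each probe set, with filled symbols where the F-test's adjusted p is below 0.05. Bcl2l15 spreads over 3.04 from KPR4 to KPR5, and KPR4 lies to the right for Mcl1 and to the left for Bid.

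Of 21 other genes of the wider BCL2 family, 14 had a probe set named in the annotation, 27 probe sets in all. Bax had no probe set named for it alone, so no value for it is given here. Of the 27 probe sets, 1 was higher and 1 lower with tamoxifen in limma, together 7.41%, against 7.92% of all probe sets. The median change was -0.02, as over all probe sets. The lower one was Bok, an effector-like member of the family, which read 5.84, 5.37 and 5.16 in KPR4, KPR5 and KPR8 with tamoxifen, against 6.62, 6.27 and 6.19 with ethanol. All tamoxifen arrays were below all ethanol arrays, and the change of -0.90 ± 0.16 (adjusted p = 0.00442) was also called with each line left out. The higher one was Becn1, an autophagy gene whose product binds BCL2 through a BH3 domain, at 0.42 ± 0.11 (adjusted p = 0.0362). That call ended with any line left out (adjusted p = 0.257 without KPR4, 0.0989 without KPR5 and 0.0521 without KPR8), and a second bright probe set of Becn1 gave 0.12 ± 0.16. The BH3-only genes Bik, Bmf and Hrk did not exceed 2.97.

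Of 42 listed symbols of partners and regulators of BCL2 proteins, 37 were in the annotation, with 103 probe sets. In limma 5 probe sets were higher and 3 lower, together 7.77%, against 7.92% of all probe sets, and the median change was -0.01. Foxo3, a transcription factor known to activate Bcl2l11, read 10.82, 10.11 and 11.01 in KPR4, KPR5 and KPR8 with tamoxifen, against 9.64, 8.33 and 9.31 with ethanol, on its brightest probe set. The groups did not overlap, the change was 1.55 ± 0.15 (adjusted p = 7.79e-05), and a second probe set gave 1.53 ± 0.16. Ei24, a p53-induced gene whose product binds BCL2, was higher by 1.30 ± 0.11 (adjusted p = 2.77e-05). Pim1, encoding a kinase that phosphorylates BAD, was lower by -0.58 ± 0.16 (adjusted p = 0.0421). Vdac1, encoding an outer membrane channel, was lower on 1 of 5 probe sets (-0.53 ± 0.13, adjusted p = 0.0242), while another gave 0.24 ± 0.11. The calls of Pim1 and Vdac1 ended with any line left out, with adjusted p between 0.0632 and 0.213. Ywhaz, encoding a 14-3-3 protein of the family that holds phosphorylated BAD, had 2 probe sets higher (0.43 ± 0.09 and 0.29 ± 0.08) and 1 lower (-0.37 ± 0.10), and 0 of its 7 were called without KPR4.

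The genes whose 6 values came nearest to those of Pmaip1, each on its brightest probe set and centred on its own mean, were Apaf1, Susd6 and Tmem19 among 12392 compared. Their root-mean-square differences from Pmaip1 over the 6 arrays were 0.156, 0.203 and 0.212 on the log2 scale. Apaf1, the scaffold of the apoptosome, changed by 1.25, 1.89 and 1.88 in KPR4, KPR5 and KPR8. Nearest to Mcl1 were Commd4, Camk2d and Tmc6, at 0.063, 0.083 and 0.084. Their mean changes were 0.52, 0.46 and 0.52, against 0.47 for the Mcl1 probe set compared. Only Tmc6 of these was called (limma adjusted p = 0.0486, against 0.0594 for Commd4 and 0.0964 for Camk2d). These likenesses were chosen from all genes and carry no test.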

How the data were processed

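Each of the 6 arrays holds 100 ng of total RNA, amplified and biotin-labelled, from 1 culture grown with 10% serum. The authors deposited GCRMA estimates on a log2 scale. GCRMA 2.20.0 and R 2.11.0 are the versions in the submitters' processing notes. This method corrects background from probe sequence and normalizes between arrays, so a shift shared by most genes would not show, and saturation was not examined. The number of arrays limits the precision.

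Gene symbols came from GEO's platform annotation, and probe sets with several symbols were named for none. The 64 array controls were left out of the tests. limma 3.58.1 in R 4.3.3 fitted line and treatment terms to 22626 probe sets with no filter on level, with variances moderated along a trend with level. The residual degrees of freedom are 2 per probe set and the moderation adds 9.89, so the spread of other probe sets enters each p-value. Standard errors use the same moderated spread, while SDs are over 3 arrays. The labels do not say that the lines' 2 cultures were grown more than once. The p-values therefore measure the spread of the response between the 3 lines together with culture and array noise, which cannot be separated. The line is the block because each line received both treatments, and deviations from the group means correlated at 0.843, 0.676 and 0.702 between the arrays of KPR4, KPR5 and KPR8. The fit was also run on data simulated from its own model with independent errors, so that run could not check the model's assumptions.

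Members and lists were chosen with earlier results of these data known. The text names all members, up to 8 called genes of each other list, and the 3 nearest profiles for members whose brightest probe set was called. Alternatives covered the block, filters, moderation, normalization, a floor, probe set choice and each line left out. Python 3.11.15 searched the promoters.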

Additional observations from a re-analysis of the deposited data

Results flagged for a closer look

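Of the Bcl2l1 probe sets, 2 moved in opposite directions in KPR5 and KPR8, each by log2 0.5 or more. The change with tamoxifen on 1426191_a_at was -1.071 in KPR5 and 1.508 in KPR8, and on 1420887_a_at it was -0.6117 and 1.645 in the same lines. The difference between lines was not tested, since each value is a difference of 2 arrays. Signs also differed between lines for 8 further probe sets of these genes, none of them by that much in both directions. Groups of 3 arrays are too small for a check of single outlying samples.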

How the results depend on the processing

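The calls rest on comparing cultures within a line. With no replicate block, limma called 0 of the 25 probe sets and 0 genes of either other list (4, 2 and 5 probe sets at an unadjusted p below 0.05), against 8 probe sets of 4 genes in the report. Over all 22626 probe sets it called 29 higher and 1 lower, against 957 and 835. That fit made no call for Pmaip1 either (adjusted p = 0.182). Setting values under background to 2.84 also ended all of those calls, again 0 (9 higher and 1 lower among the 25 at an unadjusted p below 0.05), and called 0 higher and 0 lower over all 22626 probe sets. All 9 line calls ended under it, and 1 probe set not called in the report, that of Bbc3, differed between lines (adjusted p = 0.0467). That floor makes 3634 probe sets, 16.1%, constant. With those left out, an alternative chosen after seeing the data, 4 probe sets of 2 genes, Pmaip1 and Mcl1, were higher, and of the other lists 0 family genes were higher and 1 partner gene lower. Without the variance trend 5 probe sets were higher, and 0 genes of the wider family. With 1 probe set per gene, 2 of these genes were higher and 1 partner gene lower. With probe sets averaged per gene the counts were 2 and 0, with 0 family genes higher. With a line left out, 2 (no KPR4) to 6 probe sets of 2 to 3 genes were higher, 0 to 1 lower and 3 (no KPR4) to 8 differed between lines. The 1 lower, without KPR8, was the Bak1 probe set at background. In the same settings 0 family genes were higher, and 3 to 5 partner genes were higher and 0 to 1 lower.

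Of 298 changes of the 25 probe sets recomputed, 250 kept direction and call, 36 lost and 5 gained a call, and 7 turned sign, none of them called in the report. With a line left out the sign turned for Bcl2l1 1426191_a_at (-0.66 to 0.63) and 1420887_a_at (-0.19 to 0.94), Bcl2l11 1426334_a_at (-0.46 to 0.011), 1435448_at (-0.19 to 0.10) and 1435449_at (-0.21 to 0.048), and Bak1 1425716_s_at (-0.54 to 0.016). Averaged over its probe sets, Bid gave -0.12. The filters, robust moderation, quantile normalization and median centring kept the 4 higher genes, except that with only probe sets at log2 6 or above tested, which left out the called Bcl2l1 probe set, Bcl2l15 was called as well (adjusted p = 0.0467). Where no cause is given, it was not tested. Probe sets near background carry little information on change.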
